A study of Mus musculus with 8 samples.

Results

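IFIT, MX and ISG15 antiviral effectors are a set of interferon-stimulated genes, here Ifit1, Ifit2, Ifit3, Ifit3b, Isg15, Usp18, Mx1, Mx2, Ifi27 and Xaf1. They were taken by gene symbol from a table of normalized counts, in which all 10 symbols were found among 34478. RNA was sequenced from 4 primary lines of murine pancreatic ductal adenocarcinoma (PDAC), numbered #1, #3, #5 and #10, each exposed to DMSO or to a MEK inhibitor (MEKi), with 1 library per line and treatment. The inhibitor was trametinib, which blocks the kinase MEK between RAF and ERK, given for 48 h at the IC50 of each line. The IC50 values are not given in the sources used here, so the dose could differ between lines. Both groups carry the same alleles, among them Ptf1awt/Cre and Trp53loxP/loxP. Cre is expressed from the Ptf1a locus, which is active in the pancreatic lineage, and it removes Trp53 in those cells. By genotype the controls should therefore also lack Trp53, which was not checked here. The sources used here do not say whether a line is clonal.

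Type I and type III interferons bind receptors that act through JAK kinases on a complex of STAT factors and IRF9. This complex binds a DNA element called the interferon-stimulated response element (ISRE) and switches on a large group of genes. The effectors described here are among the best known of them, and several act inside the cell against viral RNA or proteins. IFIT proteins bind RNA, ISG15 is a ubiquitin-like protein that is attached to other proteins, and USP18 takes it off again. MX proteins are GTPases that trap viral nucleoproteins. In tumor cells without infection, the same genes are often read as a sign of interferon signaling.

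The 4 Ifit genes lie in a cluster on chromosome 19, all on the plus strand of GRCm38. GENCODE M21 places Ifit2 at chr19:34550694-34576419, Ifit3 at chr19:34583531-34588731, Ifit3b at chr19:34607970-34613401 and Ifit1 at chr19:34640871-34650009. The 4 genes span 99316 bases, and the gaps between neighbors are 7111, 19238 and 27469 bases. Isg15 lies at chr4:156199424-156200818 on the minus strand. Usp18 is at chr6:121245906-121270917 on the plus strand, where an exon overlaps Gm44148 on the other strand. Xaf1 is at chr11:72301629-72313733 and Ifi27 at chr12:103434211-103440239, both on the plus strand. Mx1 at chr16:97447035-97462907, on the minus strand, and Mx2 at chr16:97535308-97560900, on the plus strand, are neighbors. GENCODE lists Mx1 as protein coding and Mx2 as a polymorphic pseudogene, whereas RefSeq lists both as transcribed pseudogenes of the reference strain.

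Promoter sequence was looked up because ISRE elements next to the start site are the feature by which this class of genes is known. RefSeq windows on GRCm38.p6, from 250 bases before to 50 bases after a start site, were found for 6 of the 10 genes, namely Ifit1, Ifit2, Ifit3, Ifit3b, Isg15 and Xaf1. The ISRE core was searched as GAAANNGAAA on both strands. The 250 bases before the start are shown for 3 genes whose windows hold it and whose transcripts rose, with each match in capitals. They are Ifit1 (chr19:34640639-34640888, plus strand), Ifit3 (chr19:34583279-34583528, plus strand) and Isg15 (chr4:156200819-156201068, minus strand), written 5′ to 3′ along the gene.
Ifit1: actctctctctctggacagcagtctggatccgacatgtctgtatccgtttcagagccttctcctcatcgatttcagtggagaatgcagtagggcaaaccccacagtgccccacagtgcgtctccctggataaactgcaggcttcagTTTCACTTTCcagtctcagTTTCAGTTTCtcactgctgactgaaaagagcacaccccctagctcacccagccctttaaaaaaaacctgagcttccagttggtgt
Ifit3: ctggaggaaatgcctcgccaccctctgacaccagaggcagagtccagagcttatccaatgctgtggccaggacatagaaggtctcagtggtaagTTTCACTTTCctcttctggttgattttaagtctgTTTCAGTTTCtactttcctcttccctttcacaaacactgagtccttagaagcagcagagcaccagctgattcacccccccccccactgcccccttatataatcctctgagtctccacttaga
Isg15: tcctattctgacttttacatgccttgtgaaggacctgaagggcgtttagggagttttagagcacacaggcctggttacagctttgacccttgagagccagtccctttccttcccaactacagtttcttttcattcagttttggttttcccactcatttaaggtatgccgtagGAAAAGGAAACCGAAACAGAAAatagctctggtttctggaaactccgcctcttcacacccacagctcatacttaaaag

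In Ifit1, the first bases of the 2 matches lie at −104 and −85 from the start site. Ifit3 has 2 matches, at −156 and −122. In both genes the core reads on the strand opposite to transcription, so the printed letters are its reverse complement. Isg15 holds 3 overlapping matches on the strand of the gene, at −78, −72 and −66, which form 1 continuous run in capitals. The Ifit3b window holds 2 matches at −188 and −154, and it was 94.5% identical to the Ifit3 window, with 259 of 274 aligned columns the same. The windows of Ifit2, which has 2 annotated starts, and of Xaf1 held no match. Of 32851 promoter windows of the same length, 3.44% held the core. A second element, the interferon-gamma activated site (GAS), was searched as TTCNNNGAA on both strands. It was found once in Ifit2, at −241, and in none of the other windows, against 8.3% of all windows. A match is a description of letters and not a test of binding, and no match says only that these letters are absent from the window.

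**Figure D1:**
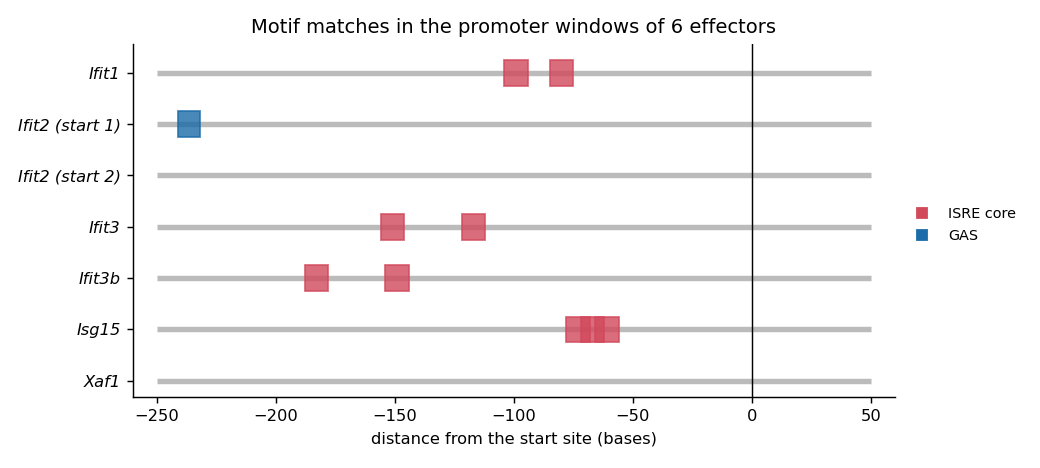
Positions of motif matches in the promoter windows of 6 effector genes, as distance from the annotated start site in bases. Grey bars are the windows, red boxes ISRE cores and blue boxes GAS matches; 4 genes hold 2 or 3 ISRE cores within 200 bases of the start, and Ifit2 and Xaf1 hold none.

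The libraries held 30680091 to 36385719 normalized counts, and the step between low values put the depth at about 29300000 to 46000000 reads. A floor of 3 reads corresponds to 2.33 to 3.72 normalized counts. Keratins Krt8, Krt18, Krt19 and Krt7 and the cadherin Cdh1, all markers of epithelium, were high in all 8 libraries, whereas Epcam was listed at 0 in both libraries of lines #1, #5 and #10 and at 10.4 and 3.75 in line #3. Of 8 targets and feedback genes of ERK, which check the action of the drug, all 8 fell with MEKi, against 25.6% of all genes tested. Etv4 (log2 fold change −5.92, adjusted p = 0.000201, limma) and Etv5 (−4.82, adjusted p = 0.000317) fell the most. Changes below are log2((MEKi + 1)/(DMSO + 1)), which understates the change of low genes. The test was limma with the line as a block, run on the 15888 genes whose mean reached 10, and p-values were adjusted over all of them (Benjamini-Hochberg).

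Of the 10 effectors, 9 passed the filter and 8 of these rose with MEKi at an adjusted p under 0.05, against 27.3% of all genes tested. None of the 9 fell at an adjusted p under 0.05, whereas 25.6% of all genes tested did. At an unadjusted p under 0.05 none of the 9 fell either. The gene that did not pass the test was Mx1. Ifit3b was below the filter. Ifit1, Isg15 and Usp18 had DMSO means under 10 and passed the filter only through their values with MEKi, so the count of 8 is a description of the set. Without the line as a block, 4 kept the call, Ifit1, Ifit3, Isg15 and Usp18, and with no filter on low genes Isg15, Usp18 and Mx2 lost it. In each of lines #1, #3 and #5, 8 of the 9 genes were higher with MEKi, and in line #10 all 9 were. Their median change was 1.93 in line #1, 1.48 in line #3, 1.42 in line #5 and 1.22 in line #10. The median over all genes tested lay between 0.03 and 0.06 in these lines. A gain in RNA per cell and a gain in the share of cells that express a gene cannot be told apart in these bulk libraries.

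**Figure D2:**
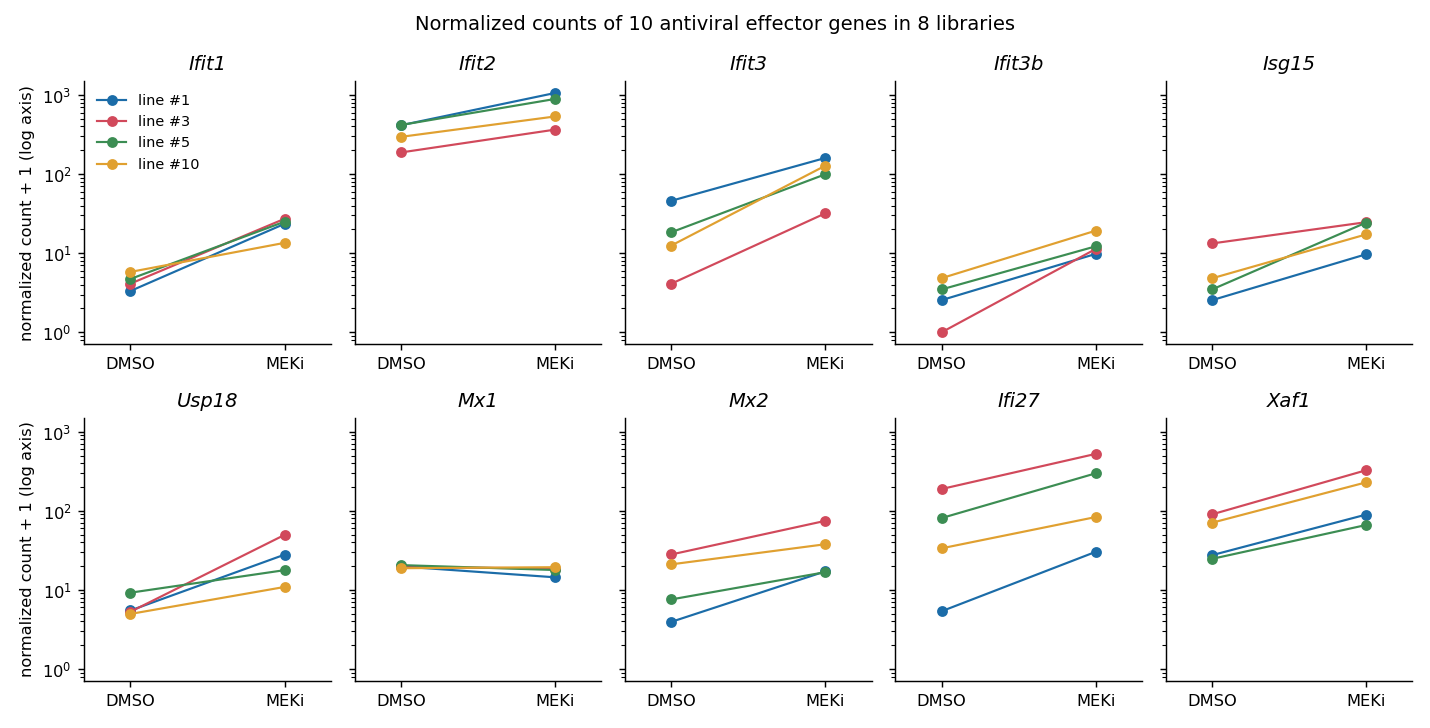
Normalized count + 1 (log axis) of the 10 effector genes in the 8 libraries; each line joins the DMSO and the MEKi library of 1 cell line. Every joining line slopes up in every panel but that of Mx1, where the DMSO values of 17.8 to 19.6 and the MEKi values of 13.4 to 18.4 overlap.

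Among the IFIT genes, Ifit2 was the most abundant. IFIT2 is an RNA-binding protein that restricts several viruses and favors cell death when overexpressed. With DMSO, Ifit2 stood at 413 normalized counts in line #1, 187 in #3, 417 in #5 and 295 in #10. With MEKi it stood at 1059.8, 364, 891 and 534 in the same order. Each line rose, and line #3 was the lowest under both treatments, so that its MEKi value lay below the DMSO values of lines #1 and #5. The mean went from 328 ± 110 to 712 ± 319 (SD, n = 4 lines). This is a log2 fold change of 1.07 (SE 0.13, adjusted p = 0.00101), with values of 0.86 to 1.36 in single lines, the narrowest span among the effectors that rose after that of Xaf1.

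Ifit3 encodes a partner that forms complexes with other IFIT proteins. Its DMSO values were 45.0, 3.11, 17.4 and 11.5 in lines #1, #3, #5 and #10. Its MEKi values were 159, 30.96, 98.6 and 127. Line #3 was again the lowest under both treatments and line #1 the highest, and the MEKi value of line #3 lay below the DMSO value of line #1. The DMSO values spread 14.5-fold over the lines and the MEKi values 5.14-fold. The DMSO value of line #3, on which the larger spread rests, stands for about 3 reads. The log2 fold change was 2.64 (SE 0.33, adjusted p = 0.00105). The rise of Ifit3 was larger than that of Ifit2 in 4 of 4 lines, by 1.57 ± 0.89 (SD) on the log2 scale. An exact two-sided sign-flip test of this difference over 4 lines gave p = 0.125, which is the smallest value that the design allows (adjusted p = 0.125 over the 3 pairs of genes compared in this way).

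Ifit3b is a near copy of Ifit3. It was listed at 1.55, 0, 2.48 and 3.83 with DMSO and at 8.80, 10.3, 11.2 and 18.3 with MEKi in the 4 lines. All MEKi values were above all DMSO values, but those of lines #1, #3 and #5 with DMSO were under the floor of 3 reads. With no filter on low genes, the log2 fold change was 2.31 (SE 0.40, adjusted p = 0.041 over 34478 genes). Of the 31-base words of the Ifit3 transcripts, 61.8% also occur in Ifit3b, and 55.3% of those of Ifit3b occur in other genes. The division of reads between both genes is therefore uncertain. The sum of both went from 46.5 to 168 in line #1, from 3.11 to 41.3 in #3, from 19.9 to 110 in #5 and from 15.3 to 145 in #10. This is a mean log2 change of 2.69 ± 0.71 (SD, n = 4), close to that of Ifit3 alone.

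IFIT1 binds viral RNA whose cap lacks the methylation marks of host mRNA. Ifit1 was near the floor with DMSO, at 2.33, 3.12, 3.72 and 4.79 in lines #1, #3, #5 and #10, which corresponds to about 3 to 5 reads. With MEKi it stood at 22.5, 26.2, 24.0 and 12.5. The groups did not overlap. The line with the highest DMSO value, #10, had the lowest MEKi value. The mean rose from 3.49 ± 1.04 to 21.3 ± 6.06 (SD, n = 4). Its log2 fold change was 2.29 (SE 0.42, adjusted p = 0.00415), and it ran from 1.61 with a pseudocount of 5 to 2.57 with one of 0.1, since the DMSO values are so low. Some 10.8% of its 31-base words are shared, most of them with Ifit1bl2. That relative was between 0 and 4.82 in all 8 libraries, and Ifit1bl1 between 0 and 5.77. The family gene Gm14446 was not analysed here.

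Isg15 encodes the ubiquitin-like modifier itself. Its DMSO values were 1.55, 12.3, 2.48 and 3.81 in lines #1, #3, #5 and #10, and those of lines #1 and #5 stand for about 2 reads. Its MEKi values were 8.70, 23.7, 23.4 and 16.3. Every line rose, but line #3 with DMSO was above line #1 with MEKi. The mean went from 5.03 ± 4.92 to 18.0 ± 7.09 (SD, n = 4), with a log2 fold change of 1.87 (SE 0.43, adjusted p = 0.0105). Of its 31-base words, 13.1% occur in other genes.

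Usp18 encodes the protease that removes ISG15 and that also restrains the type I interferon receptor. With DMSO it was at 4.49, 4.29, 8.21 and 3.96, and with MEKi at 26.9, 48.6, 16.8 and 9.89, in the same order of lines. The groups did not overlap, with the lowest MEKi value, that of line #10, just above the highest DMSO value, that of line #5. Usp18 had a log2 fold change of 1.91 (SE 0.48, adjusted p = 0.0149). This call rested in part on line #1, without which the change was 1.77 and the adjusted p 0.061. The size rested more on line #3, which had the largest change. Without line #3 the change was 1.47 and the adjusted p 0.038. All 4 MEKi libraries above all 4 DMSO libraries was true of 15.1% of the genes tested, and among the 9 effectors tested it was true of Ifit1 and Usp18.

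Of 5 genes for enzymes that attach ISG15 to its substrates, 2 rose, 1 fell and 2 did not pass the test, with 27.3% of all genes tested higher and 25.6% lower. Without the line as a block, Uba7 alone kept the call. Uba7, the E1 enzyme that activates ISG15, rose from 119, 179, 83.5 and 101 to 899, 828, 297 and 328 in lines #1, #3, #5 and #10. Its groups did not overlap, and its log2 fold change was 2.16 (SE 0.22, adjusted p = 0.000616). Herc6, the main ISG15 ligase of the mouse, rose by a log2 fold change of 0.91 (SE 0.22, adjusted p = 0.0131), from a mean of 189.8 ± 91.4 to 328 ± 73.4 (SD, n = 4). For Ube2l6, the E2 enzyme, it was 0.45 (95% interval −0.09 to 0.99, adjusted p = 0.134), and −0.02 with quantile normalization (adjusted p = 0.954). Ube2l6 was higher with MEKi in 3 lines and lower in line #10, which had the highest DMSO value, 169.8. Among the enzymes reported to act as further ligases, Arih1 fell slightly (log2 fold change −0.27, SE 0.09, adjusted p = 0.0435), a call that was lost with libraries scaled to equal totals (−0.14, adjusted p = 0.224) and with quantile normalization (−0.15, adjusted p = 0.203). For Trim25 it was −0.22 (adjusted p = 0.136).

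**Figure D3:**
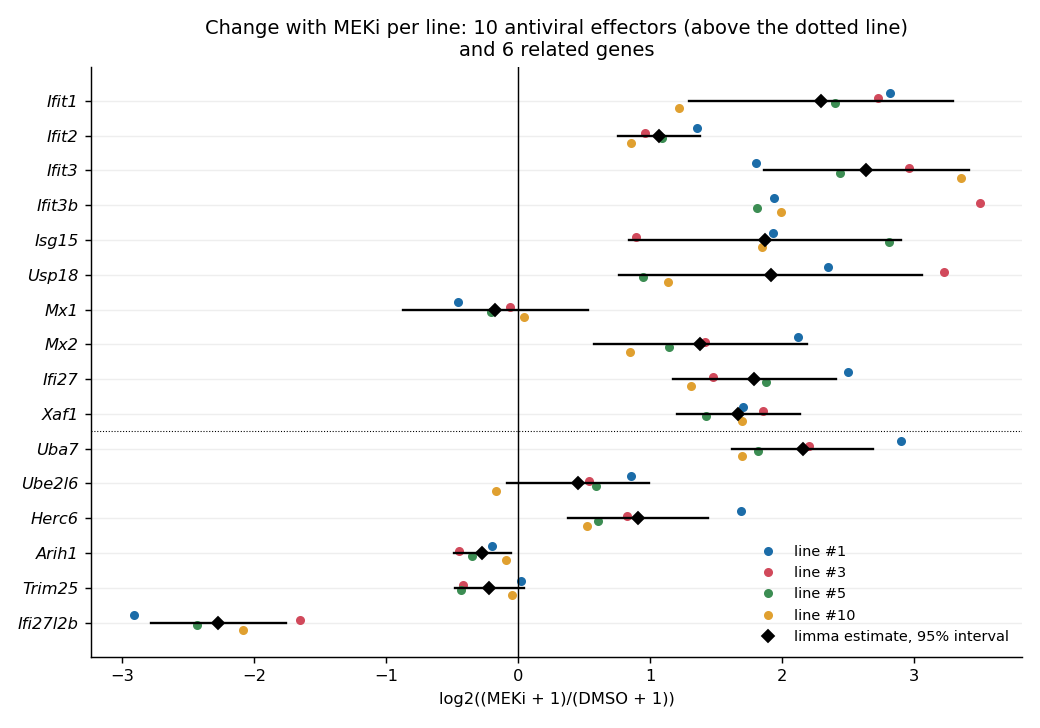
Log2((MEKi + 1)/(DMSO + 1)) of the 10 effectors and 6 related genes in each line (colored points), with the limma estimate and its 95% interval (black; none for Ifit3b, which was below the filter). Points of genes with DMSO values near 0, such as Ifit3b in line #3, depend on the pseudocount of 1; the interval of Mx1 spans 0 and that of Ifi27l2b lies between −2.78 and −1.76.

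The MX genes differed. Mx1, which in many laboratory strains carries a defective allele, was at 18.8, 18.4, 19.6 and 17.8 with DMSO in lines #1, #3, #5 and #10. With MEKi it was at 13.4, 17.6, 16.8 and 18.4. The DMSO values lay within 1.10-fold of each other, the smallest spread over lines among the 9 effectors detected in all DMSO libraries. Its log2 fold change was −0.17, with a 95% interval from −0.87 to 0.53 (adjusted p = 0.646). This interval does not reach the estimate of any of the 8 effectors that rose. Mx2 was at 2.94, 27.0, 6.57 and 20.03 with DMSO and at 16.2, 73.7, 15.7 and 36.8 with MEKi. Lines #3 and #10 were above lines #1 and #5 under both treatments, and the groups overlapped. In the fit over all lines, Mx2 rose by 1.38 on the log2 scale (SE 0.34, adjusted p = 0.0132). This call was lost with quantile normalization (adjusted p = 0.0507), with no filter (0.0591) and without the line as a block (0.199). Mx2 rose more than Mx1 in 4 of 4 lines, by 1.55 ± 0.74 (SD) on the log2 scale, with p = 0.125 by the same exact test and an adjusted p of 0.125. Both genes share sequence, since 7.22% of the 31-base words of Mx1 occur in Mx2 and 7.96% of those of Mx2 occur in Mx1.

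Ifi27 encodes a small hydrophobic protein of mitochondria and the nuclear envelope. It differed more between lines than any other effector detected in all DMSO libraries. With DMSO it stood at 4.37 in line #1, 188 in #3, 80.0 in #5 and 32.6 in #10, a 42.9-fold range. With MEKi it stood at 29.3, 524, 297 and 82.4, a 17.9-fold range. The order of the lines was the same under both treatments, and every line rose. The rise was largest in line #1, the lowest line, at 2.50, and between 1.31 and 1.88 in the others. The log2 fold change was 1.79 (SE 0.26, adjusted p = 0.00171).

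Its relative Ifi27l2b moved the other way. It fell from 329, 961, 778 and 841 to 42.9, 305, 143 and 198 in lines #1, #3, #5 and #10. The groups did not overlap, and the log2 fold change was −2.27 (SE 0.22, adjusted p = 0.000507). With DMSO, Ifi27l2b was above Ifi27 in normalized counts in all 4 lines, and with MEKi it was above it in lines #1 and #10 only. The changes of both genes differed by 4.06 ± 1.03 (SD) on the log2 scale, in the same direction in 4 of 4 lines (exact p = 0.125, adjusted p = 0.125). The other relative in the table, Ifi27l2a, was at most 5.01.

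XAF1 counteracts the apoptosis inhibitor XIAP. Xaf1 was at 26.5, 89.2, 23.7 and 69.7 with DMSO and at 88.6, 325, 65.2 and 228 with MEKi in lines #1, #3, #5 and #10. As with Mx2, lines #3 and #10 were above lines #1 and #5 under both treatments, so that the groups overlapped although each line rose about equally. The changes in single lines were 1.71, 1.85, 1.42 and 1.70. The log2 fold change was 1.67 (SE 0.19, adjusted p = 0.000879), the smallest adjusted p among the effectors.

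A rise in each of the 4 lines was found for 34.7% of the genes tested and for 8 of the 9 effectors tested. The line with the largest rise was not the same for all. It was #1 for Ifit1, Ifit2, Mx2 and Ifi27, #10 for Ifit3, #5 for Isg15 and #3 for Usp18 and Xaf1. For Ifit1, Ifit2, Mx2 and Ifi27, the smallest rise was in line #10. Baseline levels did not share an order either, with line #3 the lowest for Ifit2 and Ifit3 and the highest for Isg15, Mx2, Ifi27 and Xaf1 with DMSO.

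Levels of different genes were compared per kilobase of exon, as normalized counts per kilobase of the union of exons. Ifit2 had the highest mean level with DMSO, 83.5, followed by Ifi27 with 51.9. Xaf1 (11.1), Ifit3 (11.02), Isg15 (6.65), Mx1 (4.93) and Mx2 (3.91) came next. Usp18 (1.88), Ifit1 (1.31) and Ifit3b (0.983) were lowest. Each gene overlapped its neighbor in this order over the 4 DMSO libraries, so none of these steps exceeded the spread between lines. With MEKi, Ifit2 (181) and Ifi27 (159) were again on top, followed by Ifit3 (59.5), Xaf1 (37.7), Isg15 (23.8), Mx2 (9.85), Usp18 (9.15), Ifit1 (8.02) and Ifit3b (6.08). Mx1, with 4.37, had gone from the sixth place to the last. This place rests on means, since Mx1 spanned 3.55 to 4.85 over the MEKi libraries. It overlapped Ifit3b (4.40 to 9.14), Ifit1 (4.71 to 9.87), Usp18 (3.54 to 17.4) and Mx2 (4.36 to 20.4). Among all genes tested, Ifit2 stood at the 41.2nd percentile of mean DMSO counts, not scaled by length, whereas Ifit1 and Usp18 stood at percentiles 0.736 and 1.32.

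Signaling genes upstream of the effectors were described from a list. Of its 15 genes for interferon receptors, JAK kinases, STAT and IRF factors, 11 rose, 1 fell and 3 did not pass the test, with a median log2 fold change of 0.55, against 0.07 over all genes tested. Over all genes, 27.3% rose and 25.6% fell. Without the line as a block, 6 of the 15 rose and 0 fell, and with libraries scaled to equal totals 14 rose and 0 fell, with Ifnar2, Irf3 and Irf7 then past the threshold. Equal totals moved all genes upward, with 5333 of 15916 higher and a median of 0.20. With each library centred on its median, 9 of the 15 rose and 1 fell. Stat2 had the largest change among those that rose. It went from 588, 862, 569 and 589 to 1642, 2033, 1749.9 and 1614 in lines #1, #3, #5 and #10, a log2 fold change of 1.45 (SE 0.10, adjusted p = 0.000229). Irf9, the DNA-binding partner of the STAT factors, rose by 0.76 (SE 0.17, adjusted p = 0.00965). Irf7, itself a target of interferon, did not pass the test (1.21, adjusted p = 0.0588), and was at 24.4 with DMSO and 23.7 with MEKi in line #5. Irf1 rose by 0.40 (adjusted p = 0.0488), and Irf2, which competes with it for DNA, fell by 0.45 (adjusted p = 0.0174). Both calls are near the threshold, since that of Irf1 was lost with each library centred on its median (0.34, adjusted p = 0.0553) and that of Irf2 at equal totals (−0.32, adjusted p = 0.0555). Both were also lost without the line as a block (adjusted p = 0.125 for Irf1 and 0.082 for Irf2).

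The receptor chains Ifnar1 (log2 fold change 0.55), Ifngr1 (0.50), Ifngr2 (0.61), Ifnlr1 (0.63) and Il10rb (0.64) rose, as did the kinases Jak1 (0.23), Jak2 (0.43) and Tyk2 (0.67). Their adjusted p lay between 0.00127 and 0.0413, and Jak1 lost the call with median centring of each library (adjusted p = 0.110). Without the line as a block, Ifngr1 (adjusted p = 0.148), Ifnlr1 (0.0937), Jak1 (0.264) and Jak2 (0.131) lost it. Ifnar2 had 0.34 (adjusted p = 0.0571) and Irf3 had 0.21 (adjusted p = 0.113). Of 20 interferon ligand genes, 13 were not analysed here. Of the other 7, Ifnb1, Ifng and Ifna13 were listed at 0 in all 8 libraries. The highest value was that of Ifne, 44.9 with DMSO in line #3, which was 17.1 with MEKi. None of the 7 passed the filter.

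**Figure D4:**
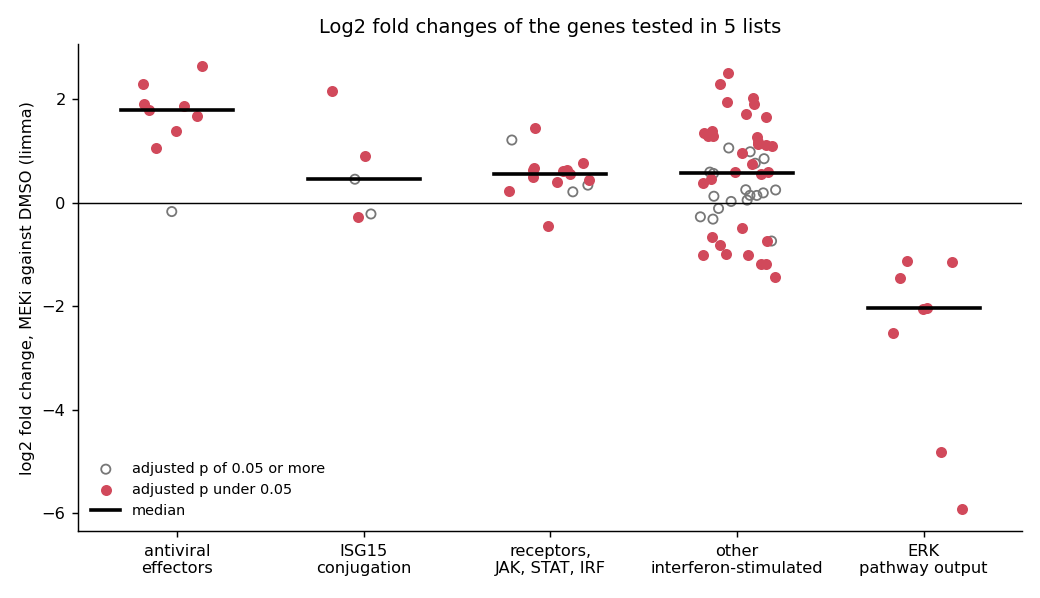
Log2 fold changes, MEKi against DMSO, of the genes tested in 5 lists, with filled points for an adjusted p under 0.05 (limma) and bars for list medians. The 9 effectors tested have a median of 1.79, the 51 other interferon-stimulated genes lie on both sides of 0, and the 8 ERK pathway genes are all below 0. The lists were chosen with earlier results of these data known.

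Other interferon-stimulated genes did not all follow the effectors. Of 67 genes on this list, 66 were in the table and 51 were tested. With MEKi, 23 of them rose and 10 fell, shares to be set against 27.3% and 25.6% of all genes tested. Without the line as a block, 12 rose and 5 fell, against 2205 and 2347 of all 15888 genes. With no filter on low genes, 14 of 66 rose and 5 fell, against 2925 and 2689 of 34478. Both this list and the effectors were chosen with earlier results of these data known. Of the effectors, Ifit1, Isg15 and Usp18 passed the filter only through their values with MEKi, so the medians only describe the sets. In the main fit, the median log2 fold change of the 51 genes was 0.57, below the 1.79 of the 9 effectors tested. The largest rises were those of Parp14, an ADP-ribosyltransferase (log2 fold change 2.52, SE 0.37, adjusted p = 0.00185), and Oasl2, of the oligoadenylate synthetase family (2.29, SE 0.49, adjusted p = 0.00775). The change of Oasl2 was 4.16 in line #1 and 1.26 to 1.96 in the others. Its DMSO value in line #1 was 0.703, so the size there depends on the pseudocount. The largest falls were those of Slfn9, of the Schlafen family (−1.44, SE 0.15, adjusted p = 0.000674), and Ifi203, of the family of DNA-binding p200 proteins (−1.18, SE 0.26, adjusted p = 0.0085). An ISRE core was found in 9 of the 18 genes that rose and have a promoter window, and in 5 of the 8 that fell and have one. Of the 10908 genes tested that have a window, 3.68% held it.

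The genes whose profile over the 8 libraries was most like the mean of the 9 effectors, each first standardized, were Zfp516 (Pearson r = 0.9902), Armcx3 (0.987), Ddr1 (0.986), Pcmtd2 (0.985) and Gm19439 (0.985). The 8 libraries share the same 2 treatments and 4 lines, so many genes reach a high r, and 0.951 is the 99th percentile of all genes tested. Of the effectors, Ifit1 (0.93) and Isg15 (0.91) were closest to their own mean, and Ifit3 (0.51), Ifit2 (0.44) and Mx1 (−0.37) farthest from it.

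Markers of other cell types were not all at 0, and some were as high as the effectors. The summed leukocyte markers were 153 to 245 with DMSO and 244 to 533 with MEKi, and 1 of 4 tested, Csf1r, rose (log2 fold change 2.83). Ptprc, the defining leukocyte marker, was between 4.05 and 17.2, and Cd3e of T cells was at most 0.488, while Cd68 was at 129.8 to 228. The summed fibroblast markers were 95.8 to 369 with DMSO and 440 to 1259.8 with MEKi, where 1 of 5 tested, Col1a1, rose (3.598, to between 360.4 and 1110.1), while Lum was listed at 0 in all libraries. The summed endothelial markers were 30.9 to 54.6 with DMSO and 62.7 to 831 with MEKi, with a rise of 1 of 3 tested, Tek (3.77), and Erg listed at 0 in all libraries. Of 6 epithelial markers tested, 5 fell and Cdh1 did not pass the test. Over all genes tested, 27.3% rose and 25.6% fell. The part of these cell types in the changes of the effectors was not tested.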

How the data were processed

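The authors prepared stranded mRNA libraries from 100 ng of RNA and deposited a table of normalized counts, a gene-level signal meant to be comparable between libraries. The submitters' processing notes name CASAVA 2.17, Salmon 0.12, DESeq2 1.18 and mm10, without their roles. The deposited table holds 34478 symbols and 8 columns, all used. Only 40.6% to 62.4% of low values lay within 0.02 of a whole multiple of 1 read, so no count test was run.

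Values were tested as log2(value + 1) with limma 3.58.1 in R 4.3.3 (lmFit, eBayes with trend), with the cell line as a block, for the 15888 genes whose mean reached 10. Adjustment was by Benjamini-Hochberg, with 0.05 as the threshold. Both libraries of a number come from the same line, and their deviations from the group means correlated at 0.63 to 0.72. Floors cover counting error only. Each line gave 1 library per treatment. With the line as a block, p-values therefore measure how much the change within a line differed between lines. This spread includes the noise of single libraries. Genes were placed by symbol with GENCODE M21 on GRCm38, and promoter windows are those of RefSeq on GRCm38.p6. The counting is not stated to use strand, which bears on Usp18 and Gm44148.

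The members and gene lists were chosen with earlier results of these data known. Named are all 10 effectors and every gene in the table from the lists of ISG15 conjugation, family relatives and upstream signaling. The 2 largest rises and falls past the threshold are named from the lists of other interferon-stimulated genes and ERK pathway output. No interferon ligand passed the filter, so the ligands listed at 0 in all libraries and the 1 with the highest value were named. Also named are the 5 genes most like the mean of the effectors by Pearson r. Marker genes were named after their values were seen. An allele that all groups share and a gene of the upstream list are not reported here. The fit was tested in a single run on simulated data, with 100 genes changed at a size of 1 and 100 others at a size of 2. It recovered 36 of those at a size of 1 and 71 of those at a size of 2. Over the whole run 0 had the wrong sign and 6 unchanged genes were called. In the data 4341 genes were called higher and 4075 lower, far more than were changed in the simulation. The shares recovered there therefore do not carry over to the data. A gene that did not pass the test may still have changed. The 14 alternatives were pseudocounts of 0.1 and 5, equal totals, quantile normalization, median centring, no filter on low genes, a filter at 50, no block, eBayes without trend or robust, and leaving out each line. Python 3.11.15 with pandas 2.3.3, numpy 2.4.6, scipy 1.17.1 and matplotlib 3.10.9 was used for tables, exact tests and plots.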

Additional observations from a re-analysis of the deposited data

Results flagged for a closer look

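Of 57 sets of 4 values looked at for a sample far from the other 3, 4 held one, and chance alone gives about 2.85. With DMSO, Usp18 stood at 8.21 normalized counts in line #5, against 3.96 to 4.49 in the other lines. The E2 enzyme Ube2l6 stood at 169.8 with DMSO in line #10, against 63.6 to 68.3 in the others. Ifit3b had a log2 change of 3.50 in line #3, against 1.81 to 1.995 in the others, and its DMSO value there was listed at 0, so the size depends on the pseudocount. Ifit1bl2 had a log2 change of −1.63 in line #3, against 0.98 to 1.47 in the others, with every value at or below 4.82 normalized counts.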

How the results depend on the processing

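Over 121 alternatives for single effectors, 112 kept their direction and side of the threshold, 9 lost the call and 0 reversed. The 8 effectors called higher became 4 when no replicate block was used, that is without the pairing of libraries by line. Lost were Ifit2 (adjusted p = 0.0675), Mx2 (0.199), Ifi27 (0.293) and Xaf1 (0.0756). With a filter at a mean of 50, 4 of 4 tested were called. With no filter 6 were called, Isg15 (0.0634), Usp18 (0.101) and Mx2 (0.0591) being lost, and with quantile normalization Mx2 was lost (0.0507). Leaving out 1 line gave 7 to 8, and Usp18 was lost without line #1. None was called lower under any of the 14 alternatives. The median change of 1.79 was 1.43 with a pseudocount of 5 and 1.61 to 1.88 with 1 line left out. Mx1 stayed between −0.55 and −0.05 (adjusted p 0.156 to 0.899).

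Of the other interferon-stimulated genes, 23 were called higher, 14 with no filter, 12 with no replicate block and 18 to 24 with 1 line left out. In the main fit 10 were called lower, and the count was 5 with no filter, 5 with no replicate block and 6 to 9 with 1 line left out, the 6 without line #5. Over all genes, 4341 were called higher and 4075 lower, with 5333 and 3285 at equal totals, which moved the median of all genes from 0.07 to 0.20, and 2205 and 2347 with no replicate block. With no filter 2925 and 2689 were called. Depth limits Ifit1, Ifit3b, Isg15 and Usp18, which had about 0 to 12 reads in the DMSO libraries, and their fold changes depend on the pseudocount. It also limits Ifit3 in line #3 and Mx2 in line #1, with about 3 and 4 reads with DMSO. The causes of the lost calls were not tested, other than the 4 effectors left by the filter at 50.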
